A study of Mus musculus with 16 samples.

Results

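The genes described here encode 5 growth factors and 5 receptors of the hepatocyte growth factor (HGF), fibroblast growth factor (FGF) and epidermal growth factor (EGF) families: the ligands Hgf, Fgf7, Fgf9, Fgf10 and Egf, and the receptors Met, Fgfr1, Fgfr2, Egfr and Erbb3. All probe sets annotated with 1 of these 10 symbols were taken, which gave 26 of the 45101 probe sets on the array, and 10 of 18193 genes named by a single symbol. A probe set is a group of short probes that are read together as 1 signal. RNA came from epididymides, the ducts that store and mature sperm, which form from the Wolffian duct of the male embryo and its surrounding mesenchyme.

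The animals were wild-type CD-1 males, an outbred mouse stock, and the organ was excised whole. Each of the 5 stages had 3 arrays: gd12, gd14, gd16 and gd18, named for the day of gestation, and pnd2, the second day after birth. The labels put them at Theiler stages 20, 22, 24, 26 and 27. The design text describes every sample as both epididymides of 1 animal, with a different dam for each. The sample labels, however, mark each gd12 and gd14 sample as a pool of 3, and those of gd16, gd18 and pnd2 as not pooled, so the spread at the youngest stages may be that of pools. A further array held a pool of 8 whole newborns of both sexes at postnatal day 0.5, with no strain given. It was left out of every test. Replicate numbers run from 1 at pnd2 to 15 at gd12 and serve only as names.

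HGF is made mainly by mesenchymal cells and acts on epithelial cells through the receptor tyrosine kinase MET, where it promotes growth, movement and tubule formation. FGF7 and FGF10 are mesenchymal ligands of the epithelial splice form of FGFR2, and FGF10 with FGFR2 drives branching and duct growth in many organs. FGF9 activates mesenchymal forms of FGFR1, FGFR2 and FGFR3, and in the fetal testis it helps to maintain Sertoli cell fate. EGF and its relatives bind EGFR, while ERBB3 binds neuregulins and has little kinase activity of its own, so it signals through partners such as ERBB2. In the Wolffian duct, these signals act in the exchange between mesenchyme and epithelium that lengthens and coils the duct under androgen.

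The deposited signal is a linear intensity, scaled so that the trimmed mean of each array was 500. Array medians lay between 110.27 and 133.99 on 15 of the 16 arrays and at 81.24 on pnd2 replicate 3. On that array the Gapdh probe sets at the 3′ and 5′ ends of the transcript gave a ratio of 63.2, against 4.33 to 7.18 on the other epididymis arrays, and its mean correlation with the other pnd2 arrays was 0.829. A high ratio of this kind marks RNA that is broken or incompletely copied. Results are therefore given with and without that array. All other arrays correlated with their own stage at 0.896 or more.

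Markers of several cell types also changed between gd12 and gd14. Of all 12239 genes, limma called 6.01% higher and 4.94% lower at this step. From gd12 to gd18 these shares were 11.6% and 9.12%. Summed signals of 8 germ cell markers were 16393 to 24409 at gd12 and 1272 to 1732 at gd14, and all 8 fell. The 11 measured markers of testis supporting and steroid cells summed to 5324 to 9296 at gd12 and 1912 to 3538 at gd14, and 5 of the 9 tested fell. Later arrays held at most 3538 except gd16 replicate 9, at 5505, the array with the most Cyp17a1 (2211), a steroid-making enzyme. Unlike the sum, the steroid-making genes on the list had higher mean signals at gd14 than at gd12, though none was called higher. Cyp17a1 went from 85.7 to 490, Cyp11a1 from 31.9 to 161, Hsd3b1 from 136 to 224 and Star from 224 to 253. Of the Sertoli cell genes on the list, Dhh read 932 to 3161 and Sox9 873.67 to 1455 at gd12, while Amh was at 32.8 or less there. Mesenchyme markers rose in 9 of 12 cases, from summed signals of 52054 to 67060 to between 143152 and 156706. Macrophage markers rose in 6 of 8 tested cases from gd12 to gd14. Smooth muscle markers rose in 2 of 8 tested cases at that step and in 7 of 8 from gd12 to gd18. Epithelium markers summed to 6821 to 9094 at gd12, 12859 to 13914 at gd14 and 17179 to 17557 at gd18, and of 12 tested 5 rose and 0 fell by limma from gd12 to gd18, with 8 and 0 at an unadjusted p under 0.05. From gd12 to gd14, 3 rose and 1 fell, Esrp1, a splicing regulator of epithelial cells (2.86-fold lower). The Wolffian duct and epididymis markers, which check the labelled tissue, had summed signals lowest at gd12 (2022 to 3132) and highest at pnd2 (20379 to 32541). Most of the pnd2 sum came from Adgrg2 (mean 208 at gd12, 12490 at pnd2) and Defb29 (40.8, 5305). From gd12 to gd18, mean signals went from 1764 to 1577 for Emx2, 121 to 138 for Pax8 and 44.3 to 24.9 for Ret. Lhx1 (287 to 417), Gata3 (71.4 to 227), Wnt9b (127 to 254) and Ehf (7.77 to 726) were higher at gd18. In bulk tissue, a lower signal from fewer cells of a type and one from less RNA per cell cannot be told apart. The part of these cell types in the changes from gd12 described next was not tested.

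The promoters of Hgf and Met are shown because these genes moved in opposite directions over the series. Each window runs from 250 bases before to 50 bases after an annotated start, is read 5′ to 3′ on the gene's strand, and comes from RefSeq on GRCm38.p6. Capitals mark matches to 3 motifs, searched on both strands, so that a match on the other strand appears as the reverse complement. The motif TATAAA belongs to the core promoter element that positions RNA polymerase, GGGCGG is bound by SP transcription factors, and AGAACA is the half-site of androgen and glucocorticoid receptors. Hgf has 2 annotated starts, with windows at chr5:16553245-16553544 and chr5:16553651-16553950, and Met 1 at chr6:17463707-17464006, all on the plus strand.
Hgf window 1: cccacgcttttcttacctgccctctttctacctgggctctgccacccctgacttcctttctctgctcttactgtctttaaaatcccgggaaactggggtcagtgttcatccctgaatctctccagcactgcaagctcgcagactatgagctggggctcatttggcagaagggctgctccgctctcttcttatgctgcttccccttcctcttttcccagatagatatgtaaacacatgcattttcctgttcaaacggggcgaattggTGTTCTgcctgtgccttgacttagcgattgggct
Hgf window 2: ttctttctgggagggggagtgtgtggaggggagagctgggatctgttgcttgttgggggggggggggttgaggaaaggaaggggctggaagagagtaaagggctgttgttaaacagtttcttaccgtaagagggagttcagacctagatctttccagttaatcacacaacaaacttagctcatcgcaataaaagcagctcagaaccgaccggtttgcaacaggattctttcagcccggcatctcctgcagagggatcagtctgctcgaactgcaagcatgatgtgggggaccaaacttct
Met window: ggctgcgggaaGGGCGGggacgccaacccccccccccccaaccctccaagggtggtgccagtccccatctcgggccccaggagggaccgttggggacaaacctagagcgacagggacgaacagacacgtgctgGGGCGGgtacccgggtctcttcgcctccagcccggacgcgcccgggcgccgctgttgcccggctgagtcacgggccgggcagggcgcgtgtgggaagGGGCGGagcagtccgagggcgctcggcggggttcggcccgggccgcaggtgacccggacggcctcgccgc

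The Met window had a GC content of 75.7% with 34 CpG dinucleotides and 3 matches to GGGCGG. Both Hgf windows had a GC content of 51.3%, with 7 and 6 CpG dinucleotides and no such match, and the first held 1 half-site match on the other strand. Over 32851 windows of 27025 genes, the median GC content was 52.7%, and 35.7% held the SP motif, 19% the half-site and 13.6% the core element. Met thus lies among GC-rich promoters and Hgf near the median. Windows were found for 8 of the 10 genes, not for Fgfr1 and Erbb3. Egfr and Fgf10 held 1 match to the SP motif each, and the windows of Fgf7, Fgf9, Fgfr2 and Egf held none of the motifs. A match describes these letters only.

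Probe sets that reached the array median on 3 or more of the 15 arrays were tested, which left 18 of the 26, for 9 of the 10 genes. Fgf10 had a single probe set, which was not tested. The values tested were log2(signal + 16), so changes of dim probe sets are understated. Probe sets differ in how strongly they bind, and no signal of 1 gene is set against that of another as an amount of RNA.

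**Figure D1:**
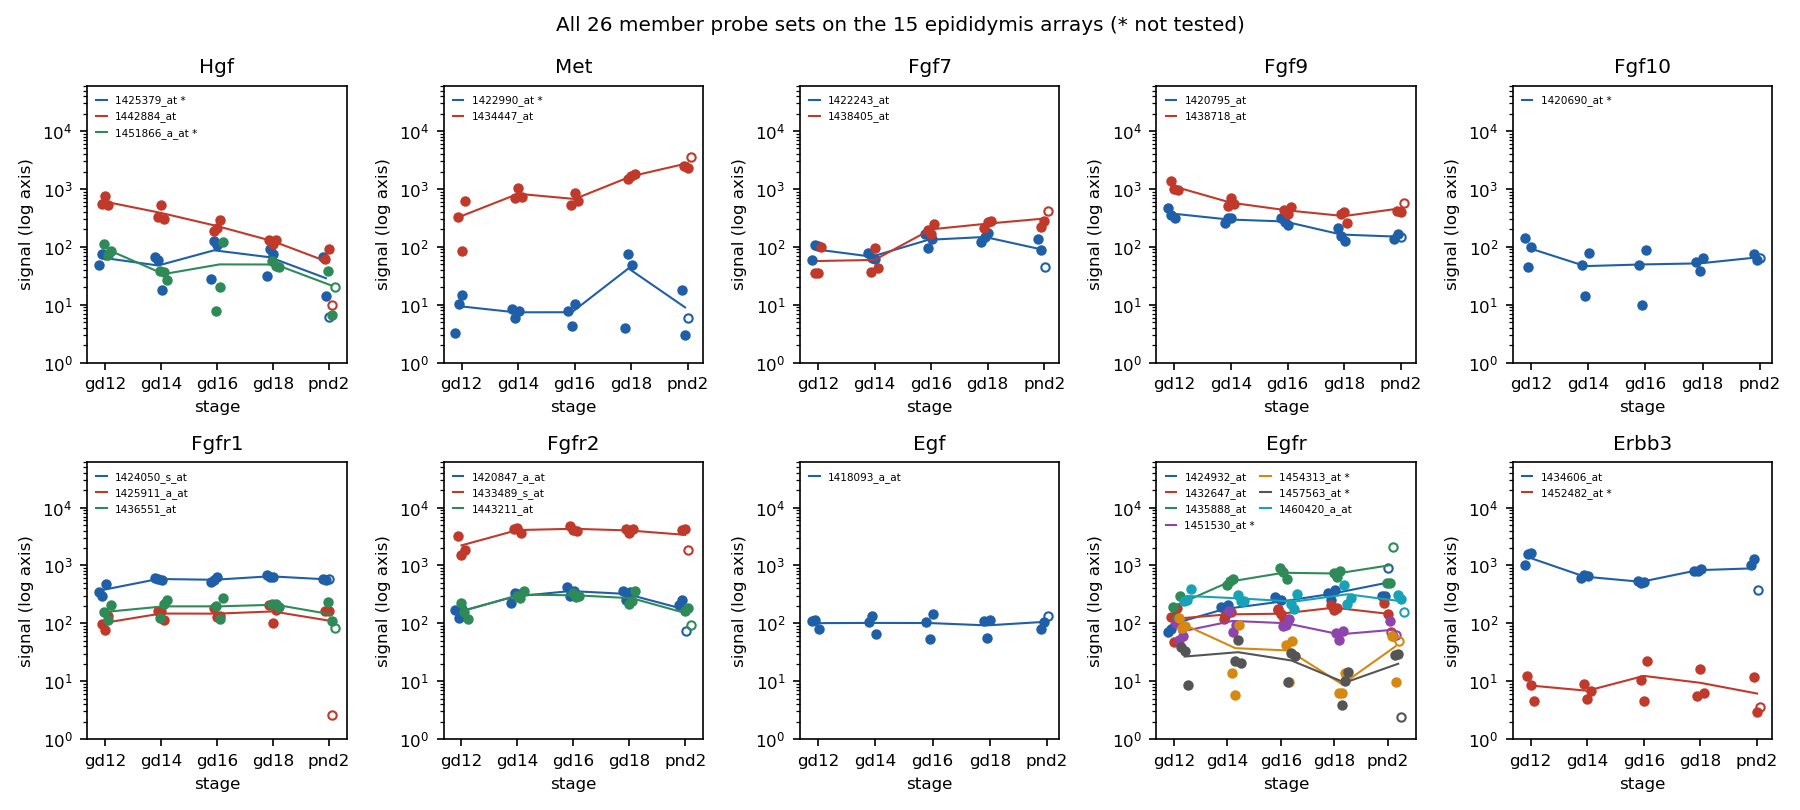
Signal (log axis) of all 26 probe sets of the 10 genes by stage on the 15 epididymis arrays, where points are arrays, lines join stage means and open circles are pnd2 replicate 3. The tested Hgf probe set goes down from gd12 to pnd2, the tested Met probe set goes up, and probe sets marked with an asterisk stayed too dim to be tested.

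Hgf RNA fell and Met RNA rose across the series. The Hgf probe set 1442884_at gave signals of 541, 742 and 525 at gd12, 324, 534 and 297 at gd14, and 186, 212 and 288 at gd16. They were 130.04, 112 and 133 at gd18 and 62.2, 90.3 and 10 at pnd2, the last on replicate 3. The gd12 and gd14 arrays overlapped, and from gd16 on each stage lay wholly below the stage before. Hgf was 4.34-fold lower at gd18 than at gd12 (log2 change -2.12 ± 0.41 SE, limma adjusted p = 0.00255). At pnd2 it was 10.2-fold lower than at gd12 (limma adjusted p = 5.12e-05), and 6.71-fold lower without replicate 3. The steps between neighbouring stages were each 1.57-fold to 2.35-fold and did not pass the test.

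The called fall of Hgf rests on this probe set alone. The other Hgf probe sets, 1425379_at and 1451866_a_at, had signals of at most 126.28 and 121.28 on any epididymis array and were not tested. For 1451866_a_at, the gd12 arrays (111, 72.3 and 83.9) lay above the gd14 arrays (38.8, 36.3 and 26.2), but a gd16 array was higher still. Its gd18 arrays (57.15, 46.2 and 45.0) and pnd2 arrays (37.8, 6.51 and 20.0) also lay wholly below gd12. For 1425379_at the arrays of gd12 and gd18 overlapped. In the newborn pool, 1442884_at read 18.1 and 1425379_at 67.2.

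Met, the HGF receptor, was read by 1434447_at at 327, 86.0 and 608 at gd12, 699.98, 1048 and 723 at gd14, and 535, 849.51 and 626 at gd16. It reached 1474, 1659.57 and 1833 at gd18 and 2459, 2329 and 3569 at pnd2. All gd14 arrays were above all gd12 arrays, gd14 and gd16 overlapped, and gd18 and pnd2 each lay wholly above the stage before. The gd12 arrays were far apart, with replicate 14 lowest.

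Met rose 5.96-fold from gd12 to gd18 (log2 change 2.58 ± 0.46 SE, limma adjusted p = 0.00147) and 9.85-fold from gd12 to pnd2 (limma adjusted p = 0.000166). Without gd12 replicate 14, the log2 changes were 1.85 and 2.57 and both still passed. From gd12 to gd14 Met was 2.96-fold higher, which missed the threshold with all arrays (limma adjusted p = 0.0505) and passed it without pnd2 replicate 3 (limma adjusted p = 0.014). The second Met probe set, 1422990_at, never exceeded 75.08 and was not tested. The epithelium markers moved as given above, and their part in the rise of Met was not tested.

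**Figure D2:**
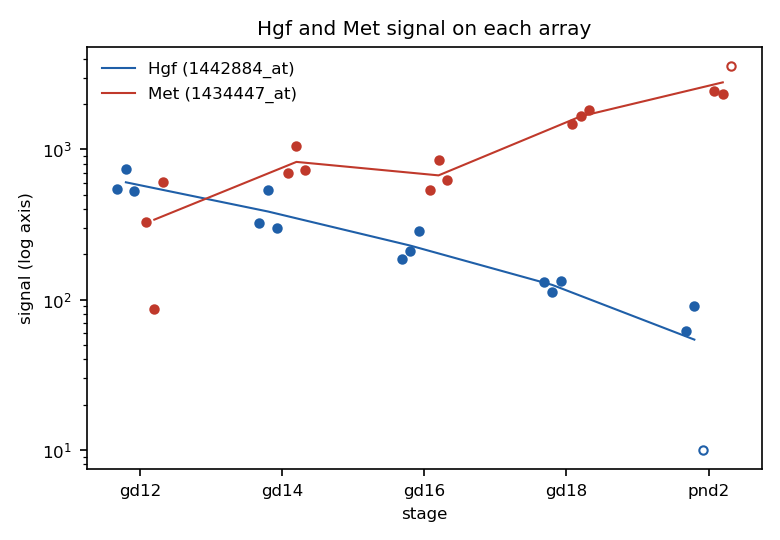
Signal (log axis) of Hgf 1442884_at and Met 1434447_at by stage, with points for arrays, lines through stage means and an open circle for pnd2 replicate 3. Hgf goes down from 525 to 742 at gd12 to at most 90.3 at pnd2, and Met goes up from 86.0 to 608 to at least 2329.

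The next ligands, Fgf7 and Fgf10, share the receptor FGFR2. Fgf7 1438405_at read 35.6, 35.2 and 99.8 at gd12, 37.4, 97.1 and 43.5 at gd14, and 194, 164 and 244 at gd16. At gd18 it read 209, 270.53 and 276, and at pnd2 218, 283 and 423. The gd12 and gd14 arrays overlapped at low signal, and every later array was above all of them. Fgf7 rose 3.94-fold from gd12 to gd18 (log2 change 1.98 ± 0.38 SE, limma adjusted p = 0.00222) and 4.64-fold to pnd2 (limma adjusted p = 0.000796). The step from gd14 to gd16 was 3.01-fold and did not pass on its own (limma adjusted p = 0.225).

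The second Fgf7 probe set, 1422243_at, stayed between 44.8 and 170.32 and passed no comparison. It was 1.56-fold higher at gd18 than at gd12, with no overlap of arrays, but 1.05-fold lower at pnd2. The correlation of both probe sets over the 15 arrays was 0.374. Fgf10 1420690_at read 144, 44.5 and 101 at gd12 and 10.1 to 89.3 on all later arrays. The gd12 arrays overlapped with each later stage, and only 1 of the 15 arrays reached its median.

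Fgfr2 was bright from the first stage. Its probe set 1433489_s_at read 3277, 1536 and 1849.51 at gd12, 4231, 4414 and 3588 at gd14, and 4848, 4066 and 3986 at gd16. The gd18 arrays read 4178, 3578 and 4291, and the pnd2 arrays 4033, 4217 and 1879, the last on replicate 3. All fetal arrays after gd12 were above all gd12 arrays and overlapped among themselves. Fgfr2 was 1.9-fold higher at gd18 than at gd12 (log2 change 0.92 ± 0.30 SE, limma adjusted p = 0.0467).

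This Fgfr2 call was lost when any of 11 single arrays was left out, and was firm without pnd2 replicate 3 (limma adjusted p = 0.00204). The other Fgfr2 probe sets, 1420847_a_at and 1443211_at, moved alike, with 1.95-fold and 1.58-fold higher signals at gd18 that missed the threshold with all arrays and passed it without pnd2 replicate 3. Correlations among the 3 probe sets were 0.753 to 0.826. Summed mesenchyme and epithelium markers were also higher after gd12, as given above, and their part in the rise of Fgfr2 was not tested.

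Fgf9 fell, and Fgfr1 rose by its probe set 1424050_s_at. Fgf9 1438718_at read 1345, 998 and 956 at gd12, 502, 695 and 539.82 at gd14, and 424, 372 and 479.79 at gd16. At gd18 it read 364, 393 and 262, and at pnd2 408, 403 and 576. All later arrays were below all gd12 arrays, gd16 was wholly below gd14, and the pnd2 arrays were wholly above the gd18 arrays.

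Fgf9 fell 1.87-fold from gd12 to gd14 (log2 change -0.90 ± 0.23 SE, limma adjusted p = 0.0222) and was 3.14-fold lower at gd18 than at gd12 (limma adjusted p = 0.000168). The first of these calls was lost without gd12 replicate 13 or 14 or without gd14 replicate 10 or 12. At pnd2 it was 2.34-fold lower than at gd12 (limma adjusted p = 0.00156). The second probe set, 1420795_at, read 464, 356 and 309 at gd12 and 209.88, 151 and 128 at gd18, 2.2-fold lower with no overlap (limma adjusted p = 0.00345). From gd12 to gd14 it was 1.24-fold lower with overlapping arrays. Its correlation with 1438718_at was 0.743. Germ cell marker sums were also highest on the gd12 arrays, and testis marker sums moved as given above. Their part in the fall of Fgf9 was not tested.

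Fgfr1 1424050_s_at read 349.53, 302 and 476 at gd12, 613, 577 and 560.27 at gd14, and 515, 558 and 622 at gd16. At gd18 it read 679, 643 and 625, and at pnd2 580.44, 565 and 581. Every later array was above every gd12 array. Fgfr1 rose 1.56-fold from gd12 to gd14 (log2 change 0.64 ± 0.18 SE, limma adjusted p = 0.0438), a call lost in 12 of the 15 fits that left out 1 array, and 1.73-fold from gd12 to gd18 (limma adjusted p = 0.00843). The other Fgfr1 probe sets, 1425911_a_at and 1436551_at, did not pass any comparison. They read 76.3 to 134 and 116 to 205 at gd12 and 101 to 209 and 195 to 219 at gd18, with overlap. Their correlations with 1424050_s_at were 0.195 and 0.302. From gd12 to pnd2 their log2 changes were -0.45 and -0.23, while that of 1424050_s_at was 0.62 (limma adjusted p = 0.0268).

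Egf did not pass any test, while Egfr rose. Egf 1418093_a_at read 53.3 to 146 on the epididymis arrays, with gd12 arrays of 108, 115 and 79.0 and gd18 arrays of 108, 55.5 and 113, and reached its array's median on 4 of 15. Its log2 change from gd12 to gd18 was -0.15 ± 0.38 SE (limma adjusted p = 0.855). The newborn pool read 192, above each epididymis array.

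Egfr 1435888_at read 192, 125 and 301 at gd12, 455, 534 and 591 at gd14, and 903, 762 and 576 at gd16. It then read 749, 621 and 804 at gd18 and 493, 488 and 2049 at pnd2, where the high value is replicate 3. Every later array was above every gd12 array. Egfr was 3.5-fold higher at gd18 than at gd12 (log2 change 1.81 ± 0.44 SE, limma adjusted p = 0.0114). This call was lost without gd12 replicate 14 (limma adjusted p = 0.0618). At pnd2 it was 3.85-fold higher than at gd12, and 2.41-fold higher without pnd2 replicate 3.

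The probe set 1424932_at behaved alike, with 72.1, 78.8 and 136 at gd12 and 337, 255 and 377 at gd18, a 3.09-fold rise (limma adjusted p = 0.00925). These Egfr probe sets correlated at 0.888. Of the other Egfr probe sets, 1432647_at and 1460420_a_at were tested and passed no comparison, and 1460420_a_at correlated with 1435888_at at -0.348. The remaining 1451530_at, 1454313_at and 1457563_at were not tested. Of these, 1454313_at went the other way, with 125, 83.0 and 88.2 at gd12 and 6.16, 6.28 and 14.05 at gd18. The gd12 and gd18 arrays of 1451530_at and of 1457563_at overlapped. The Egfr rise was thus seen on 2 of 4 tested probe sets.

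Erbb3, a receptor of neuregulins, had its lowest signal at gd16. Its probe set 1434606_at read 1006, 1561 and 1607 at gd12, 601, 672 and 651 at gd14, and 545, 497 and 521 at gd16. At gd18 it read 802, 803 and 878, and at pnd2 1003, 1303 and 369, the last on replicate 3. Through gd18 no 2 neighbouring stages overlapped. The gd16 arrays were the lowest outside pnd2 replicate 3.

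None of these Erbb3 steps passed with all arrays (gd14 against gd12, log2 change -1.07 ± 0.34 SE, limma adjusted p = 0.0674). Without pnd2 replicate 3, Erbb3 was called lower at gd14 (2.1-fold, limma adjusted p = 0.000251) and at gd18 (1.64-fold, limma adjusted p = 0.00377) than at gd12. The newborn pool read 2349, above each epididymis array. The second Erbb3 probe set, 1452482_at, read at most 22.0 and was not tested.

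Counted over all 5 stages, 9 of the 18 tested probe sets, from 7 genes, changed by limma's F test, against 20.9% of the 25981 probe sets tested. The genes were Hgf, Met, Fgf7, Fgf9, Fgfr1, Fgfr2 and Egfr. Without pnd2 replicate 3 the count was 12 of 18, against 38.6% of all. Fgfr2 is counted here through 1443211_at, and through all 3 of its probe sets without that array, when Erbb3 is added. The members and lists were chosen with earlier results of these data known. Shares of all probe sets or genes, here and below, therefore give a scale and do not test for an excess.

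From gd12 to gd18, 9 of 18 were called, against 16.5% of all probe sets tested. Of these, 6 rose, against 9.44% of all, namely Met, Fgf7, Fgfr1, Fgfr2 and both Egfr probe sets. The 3 that fell, against 7.09% of all, were Hgf and both Fgf9 probe sets. The count was 12 without pnd2 replicate 3, against 33.3%. The median log2 change of the 18 was 0.66, and that of all tested probe sets 0.04. Arrays did not overlap for 12 of the 18, against 42.8% of all.

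From gd12 to pnd2, 8 of 18 were called against 21.1% of all, 5 of them higher against 10.3% and 3 lower against 10.8%. These were the same probe sets as at gd18 apart from Fgfr2 1433489_s_at. Without pnd2 replicate 3 the count was 9, against 28.1%, and Fgfr2 1433489_s_at was again among them. Arrays did not overlap for 8 of the 18, against 32.5%.

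**Figure D3:**
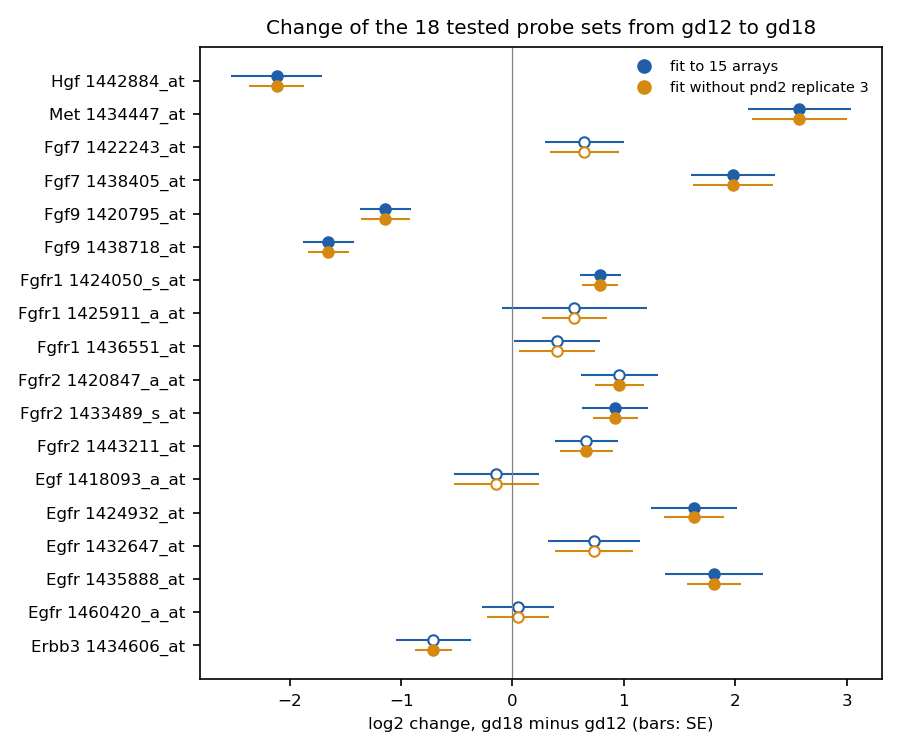
Log2 change from gd12 to gd18 of the 18 tested probe sets with its standard error, where filled points passed an adjusted p of 0.05 and colours separate the fit to 15 arrays from the fit without pnd2 replicate 3. Met has the largest rise (2.58) and Hgf the largest fall (-2.12), and the 3 further points filled in the second fit are 2 Fgfr2 probe sets and Erbb3.

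Between neighbouring stages few changes passed. From gd12 to gd14, 2 of 18 were called against 8.72% of all: Fgfr1 rose, against 5.08% of all, and Fgf9 fell, against 3.63%. The count rested on single arrays. It was 9 without pnd2 replicate 3, against 23.8% of all. It was 0 without gd12 replicate 14 (5.21% of all), gd14 replicate 10 (5.08%) or gd14 replicate 12 (5.19%). It was 1 without gd14 replicate 11 (5.05%), pnd2 replicate 1 (9.09%) or any array of gd16 or gd18 (7.69% to 7.89%). Arrays did not overlap for 8 of the 18, against 38.6% of all.

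For gd16 against gd14 limma called 0 of the 18 (0.0616% of all), and 2 had an unadjusted p under 0.05. For gd18 against gd16 limma called 0 (0.142% of all), with 2 at an unadjusted p under 0.05. For pnd2 against gd18 limma called 0 (0.558% of all), with 3 at an unadjusted p under 0.05. Arrays did not overlap for 5 of the 18 in each of these comparisons, against 20.3%, 19.7% and 22.1% of all.

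Each ligand was then paired with a receptor on the same array, as the log2 ratio of the ligand's brightest tested probe set to the receptor's (for Fgf10, its single, untested probe set). The 3 gd12 arrays were compared with the 9 arrays of gd14, gd16 and gd18 by a two-sided exact permutation test over 220 assignments, adjusted over 5 pairs. Such a ratio shows unequal change of both genes and not which is more abundant. The smallest p these arrays allow is 0.00455.

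The Hgf to Met ratio was 0.70, 2.89 and -0.21 at gd12, between -1.24 and -0.95 at gd14, between -1.93 and -1.08 at gd16, and between -3.71 and -3.35 at gd18. All later fetal arrays were below all gd12 arrays, and gd18 was wholly below the rest. The mean was -3.17 lower on the log2 scale in the later arrays (exact permutation adjusted p = 0.00568). Without gd12 replicate 14, the array with the least Met, it was -2.29 and did not pass (exact permutation adjusted p = 0.0682).

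The Fgf9 to Fgfr1 ratio changed by -1.97 (exact permutation adjusted p = 0.00568), and that of Egf to Egfr by -1.75 (exact permutation adjusted p = 0.00568). The log2 change of Egf itself from gd12 to gd18 was -0.15, and that of Egfr 1.81. No result is given for Fgf10 and Fgfr2, since the Fgf10 probe set reached the median on 1 of 15 arrays. For Fgf7 and Fgfr2 the difference of 0.28 did not pass (exact permutation adjusted p = 0.641), and its sign turned with a constant of 64, with the mean of all tested probe sets or without gd12 replicate 13. Within the fetal series the Fgf7 to Fgfr2 ratio was -6.31 to -5.29 at gd14 and -4.22 to -3.65 at gd18, with no overlap.

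**Figure D4:**
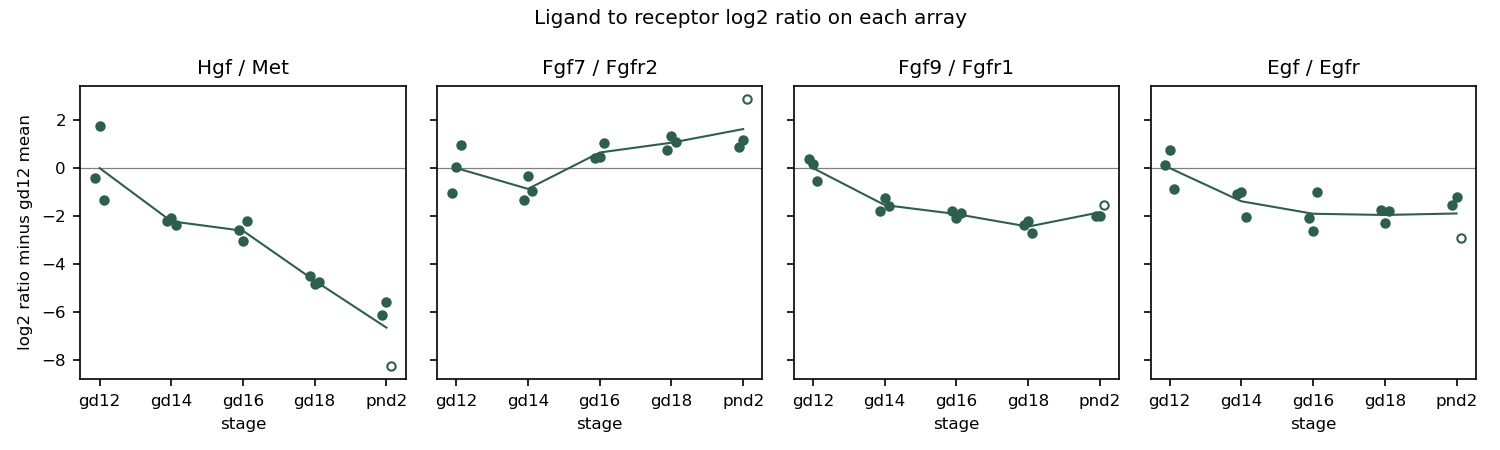
Ligand to receptor log2 ratio on each epididymis array minus the mean of the gd12 arrays for 4 pairs, with points for arrays, a line through stage means and an open circle for pnd2 replicate 3. Hgf to Met lies below its gd12 mean on every later array, while Fgf7 to Fgfr2 is higher on the gd18 than on the gd14 arrays.

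Partners of these receptors were read from lists with 1 probe set per gene. Among 11 tested genes of HGF activation, inhibition and relay, 1 rose from gd12 to gd14, against 6.01% of 12239 genes. It was Cd44, whose product can act as a coreceptor of MET. Cd44 read 129, 105 and 88.1 at gd12, 379, 353 and 398 at gd14, 466, 723 and 514 at gd16, and 1331, 1570.26 and 1504 at gd18. No stage up to gd18 overlapped with the next, and the rise to gd18 was 12.1-fold (limma adjusted p = 1.35e-07).

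From gd12 to gd18, 3 of these 11 rose, against 11.6% of all genes. The others were Mst1r, a receptor related to MET (4-fold, limma adjusted p = 0.00592), and Gab1, an adaptor that binds activated MET (1.34-fold, limma adjusted p = 0.0433). Their median log2 change was 0.47, against 0.01 for all genes. From gd12 to pnd2, 3 rose, against 13.4% of all genes, and 2 fell, against 11.6%. Here Spint2, an inhibitor of HGF-activating proteases, joined Cd44 and Gab1, and the adaptor Grb2 and the protease Plat fell. The counts were 6 and 2 without pnd2 replicate 3, against 17.8% and 15.9% of all genes. Those that rose then included Mst1r and the serine proteases Hpn and St14.

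Of 18 tested targets and feedback genes of receptor tyrosine kinases, 1 rose and 2 fell from gd12 to gd14, against 6.01% and 4.94% of all genes. Etv5, a transcription factor induced by FGF, read 922, 1098 and 1172 at gd12, 274, 424 and 385 at gd14, and 137.3 to 298 on all later arrays. It was 2.9-fold lower at gd14 than at gd12 with no overlap (limma adjusted p = 0.00187). Dusp4, a phosphatase that switches off ERK kinases, read 479.72, 1008 and 753 at gd12 and 142, 203 and 163 at gd14, a 3.98-fold fall (limma adjusted p = 0.000971). Lrig3, of a family of membrane proteins that act on receptor tyrosine kinases, rose 2.47-fold (limma adjusted p = 0.00335).

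From gd12 to gd18, 3 of the 18 rose, namely Fos, Lrig3 and Errfi1, an inhibitor of EGFR, and 2, Dusp4 and Etv5, fell, against 11.6% and 9.12% of all genes. Without pnd2 replicate 3 the counts were 8 and 5, against 19.9% and 19.3% of all genes, and for gd14 against gd12 they were 6 and 5, against 14.8% and 13.3%. Dusp6, an ERK phosphatase, fell 3.66-fold from gd12 to pnd2 (limma adjusted p = 0.00162), and 2.47-fold without pnd2 replicate 3. In that fit it was also called lower at gd14 (1.66-fold) and gd18 (1.95-fold) than at gd12. Spry1 and Spry2, feedback inhibitors of FGF receptors, did not pass with all arrays. Without pnd2 replicate 3, Spry1 was called higher than at gd12 at gd14 (1.59-fold, limma adjusted p = 0.0271) and at gd18 (1.53-fold, limma adjusted p = 0.0318). Spry1 read 836 to 1454 at gd12 and 1661 to 2062 at gd18. The germ cell marker sums fell at the same step, and their part in these changes was not tested.

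**Figure D5:**
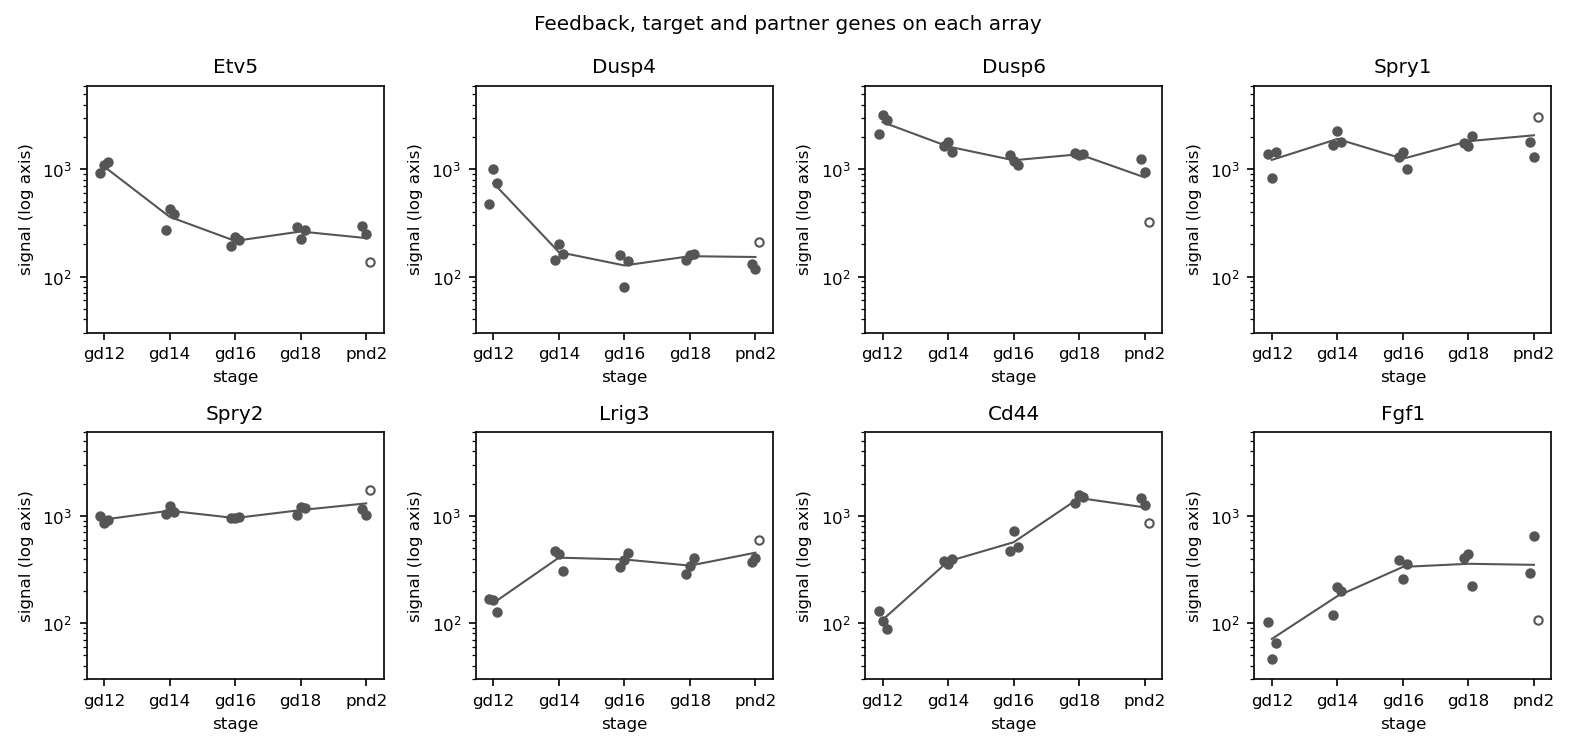
Signal (log axis) on each epididymis array by stage for 8 genes of the pathway lists, with lines through stage means and an open circle for pnd2 replicate 3. Etv5 and Dusp4 drop after gd12, while Cd44 climbs from 88.1 to 129 at gd12 to at least 1331 at gd18.

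Among 19 other genes of the FGF family, 6 were bright enough to test. From gd12 to gd18, 3 of these rose by limma's test, against 11.6% of all genes: Fgf1 4.26-fold, Fgf12 2.81-fold and Fgf11 2.47-fold. Of 22 other FGF receptors, coreceptors and binding proteins, 4 rose and 3 fell from gd12 to gd18, against 11.6% and 9.12% of all genes. The counts were 6 and 3 without pnd2 replicate 3, against 19.9% and 19.3%. Those named by the rule were Sdc3, Gpc1 and Sdc2, which carry heparan sulfate chains that bind FGFs, and, falling, Fgfrl1 and the sulfotransferases Hs6st2 and Hs6st1, which modify such chains. Hs6st2 was 4.02-fold lower (limma adjusted p = 1.06e-05).

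The EGF family partners passed no test with all arrays. Limma called 0 of 4 other EGF family ligands and 0 of 4 other receptors and sheddases in any comparison, with at most 1 of each at an unadjusted p under 0.05. Of all genes, 11.6% rose and 9.12% fell from gd12 to gd18, so 0 of 4 does not set these genes apart. Without pnd2 replicate 3, limma called the sheddase Adam10 1.32-fold lower and Rhbdf1, which regulates sheddases, 1.45-fold higher at gd18 than at gd12. In that fit 19.3% of all genes were called lower and 19.9% higher. The EGFR ligand Btc was called 2.71-fold higher at pnd2 than at gd12, against 17.8% of all genes. Erbb2, the partner of ERBB3, read 349, 208 and 330.19 at gd12, 473, 425 and 396 at gd14, and 283, 289 and 351 at gd18. All gd14 arrays were above all gd12 arrays, while gd12 and gd18 overlapped. In the fit without pnd2 replicate 3, Erbb2 was 1.47-fold higher at gd14 than at gd12, at the threshold (limma adjusted p = 0.05). Erbb4, another neuregulin receptor, was not tested, with a highest epididymis signal of 39.9. Hbegf, a ligand of EGFR, read 141 to 281 at gd12 and 209 to 248 at gd18, with overlap.

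Over the 15 arrays, the genes whose log2 values correlated best with each member were named as a description, since the arrays share stage and scaling. Hgf was most like Zfp217 (r = 0.961), Plcg1 and Rest, and Met most like Igsf5 (r = 0.969), Pou3f3 and Ifih1. Fgf7 was closest to Plcb1 (r = 0.921), and Fgf9 to Tfap2c (r = 0.942) and the embryonic globin Hbb-bh1 (r = 0.939). Summed red cell markers fell from between 42207 and 64905 at gd12 to at most 1372 at gd18. Fgfr1 was closest to Cacna2d3 (r = 0.953), and Fgfr2 to Sdc2 (r = 0.95), which is on the coreceptor list. Egfr was closest to Tmem106b (r = 0.971) and Erbb3 to Gstm2 (r = 0.942). Egf had the weakest best match, Mctp2 (r = 0.745).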

How the data were processed

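Total RNA was amplified in 2 rounds and labelled with biotin, per the labels. The authors deposited a linear intensity for every probe set on each array, from GCOS (the Affymetrix scanner software), per the submitters' processing notes. For the signal algorithm, a version is not given in the sources used here. From the deposited intensity, log2(intensity + 16) was taken. The 64 control probe sets were left out. A probe set was tested if at or above its array's median on at least 3 of 15 epididymis arrays (25981 kept). Gene symbols came from GEO's platform annotation: 34945 probe sets had 1, 932 several and 9160 none.

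Stage means were fitted to all kept probe sets with limma 3.58.1 (lmFit, eBayes with intensity trend; R 4.3.3), p-values adjusted by Benjamini-Hochberg over all of them and called under 0.05. The fit was tested on simulated data. Pathway genes were taken by their brightest kept probe set. Genes named are all members, up to 3 called genes of each list in each direction with the largest change, and the 3 genes most correlated with each member. Genes named outside that rule (Spry1, Spry2, Erbb2, Erbb4, Hbegf, Amh, Dhh, Sox9, Cyp17a1) were chosen after their values were seen. The same holds for Cyp11a1, Hsd3b1, Star, Emx2, Pax8, Ret, Lhx1, Gata3 and Wnt9b. The members and lists were chosen with earlier results of these data known. Labels give no batch. The number of arrays, 3 per stage, limits the precision.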

Additional observations from a re-analysis of the deposited data

How the results depend on the processing

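Brackets give the share of all probe sets tested that was called in the same setting. Leaving out single arrays moved the count of called probe sets for gd14 against gd12 between 0 and 9, from 2 as reported (8.72%). It was 0, for instance, without gd12 replicate 14 (5.21%) and 9 without pnd2 replicate 3 (23.8%). The count for pnd2 against gd18 moved between 0 and 1, the latter without pnd2 replicate 2 (3.16%). For gd14 against gd12 the count was also 4 after quantile normalization (10%), 1 with no filter (4.43%) and 9 with array weights (22.7%). It was 7 from only the 6 arrays compared (19.5%) and 9 from the 12 fetal arrays (23.2%). Without pnd2 replicate 3, gd14 replicate 10 and gd16 replicate 9 it was 8 (17.2%). It was 0 at an adjusted p of 0.01 (4.16%) or with a log2 change of at least 1 (5.9%). The stricter filter, with 15013 probe sets tested, gave 5 for gd18 against gd12 (20.7%), 4 for pnd2 against gd12 (25.7%) and 4 for any change (25.6%). Any change fell to 5 at an adjusted p of 0.01 (10.2%). Using only the 6 arrays compared gave 3 for pnd2 against gd12 (5.6%) and 1 for gd18 against gd16 (1.08%). Array weights gave 1 for gd16 against gd14 (1.81%). The Hgf to Met ratio ranged from -3.84 to -2.29 over fits that left out 1 array. The Fgf7 to Fgfr2 ratio ranged from -0.23 to 0.76, and was -0.072 with a constant of 64 and -0.15 with the mean of all kept probe sets. The causes were not tested. No paired analysis was made, since the labels give no pairing of samples between stages.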

Other observations

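In the pool of whole newborns, which entered no comparison and has a single array, several of these probe sets lay outside the range of the epididymis arrays. Fgfr2 1433489_s_at read 1527.98 in the pool and at least 1536 in the epididymis. Fgf9 1438718_at read 243 in the pool and at least 262 in the epididymis. Met 1434447_at read 1090.22 in the pool, above all gd12, gd14 and gd16 arrays and below all gd18 and pnd2 arrays. Fgf7 1438405_at read 365, above every epididymis array except pnd2 replicate 3.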
